A study of Mus musculus with 15 samples.

Results

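The excitation-contraction coupling proteins of the triad were described as the 10 genes *Ryr1*, *Ryr3*, *Cacna1s*, *Cacna2d1*, *Cacnb1*, *Cacng1*, *Jph1*, *Jph2*, *Stac3* and *Trdn*, chosen by symbol through the GRCm38 annotation from the 30672 genes of the count table. All 10 had a row in the table, and all 10 were among the 15533 genes that passed the filter on low counts. RNA was sequenced from the tibialis anterior, which lifts the foot, of 15 male 129Pas mice aged 7 weeks. The mice were untreated wild type (WT, n = 4), wild type given tamoxifen (WT + TAM, n = 4), untreated *Mtm1*-/y (n = 4) and *Mtm1*-/y given tamoxifen (Mtm1-/y + TAM, n = 3). *Mtm1*-/y males carry an inactivated gene for the phosphoinositide phosphatase myotubularin in all cells and are a model of X-linked myotubular myopathy, and tamoxifen is an oestrogen receptor modulator of which the sources used here state no dose or duration. The question was which of these genes differed between the genotypes and whether their levels moved with the drug.

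At the triad, a T-tubule of the surface membrane lies between a pair of terminal cisternae of the sarcoplasmic reticulum. The dihydropyridine receptor of the T-tubule, a calcium channel that acts as voltage sensor, is built on the pore subunit *Cacna1s* with the auxiliary subunits *Cacna2d1*, *Cacnb1* and *Cacng1*, and it needs the adaptor *Stac3* to reach the membrane and to couple. It opens the release channel *Ryr1* by direct contact, while the junctophilins *Jph1* and *Jph2* hold the membranes together and triadin, from *Trdn*, ties the release channel to calsequestrin in the lumen.

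All levels below are in CPM, the usual depth-scaled count (a gene's share of its library's counts over the tested genes, times a fixed constant), scaled by trimmed mean of M values (TMM) factors. Differences between groups are log2 fold changes with the standard error (SE) of an edgeR quasi-likelihood fit to the 15 libraries, and p-values were adjusted by Benjamini-Hochberg over all 15533 genes. A gene was called when its adjusted p was under 0.05. Total counts were 18042558 to 45823277 per library, and the genes other than *Ryr3* had at least 4238 counts in each library. *Ryr3* had 14 to 191 counts.

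*Mtm1* itself was at 14.9 to 15.6 CPM in the WT libraries, 13.5 to 17.7 in WT + TAM, 2.91 to 3.63 in Mtm1-/y and 3.04 to 3.71 in Mtm1-/y + TAM, so each library matched its genotype label. The sources used here do not state which bases of the gene the mutation removes. Markers of muscle fibres of any type summed to 98233 to 121822 CPM in WT and 80345 to 100909 in Mtm1-/y, with 3 of 8 called lower and 1 higher. Those of fast fibres summed to 139252 or more in each library, against 113 to 354 for slow fibre markers in 14 libraries and 1412 in WT + TAM replicate 1. This library, which also had the highest sum of fibroblast markers (4695 CPM, against 358 to 2205 in the others), and Mtm1-/y replicate 1, which had the lowest, stood apart on the principal components. Values that rest on them are given with and without them. Between Mtm1-/y and WT, 5 of 5 endothelial markers were called lower and 4 of 6 markers of satellite cells and myoblasts higher and 1 lower, with summed levels of 49.4 to 99 CPM against 21.3 to 35.8 in WT. A list of 6 heart markers, of which 2 were tested and 1 was called lower, summed to 3156 to 8607 CPM in WT, 334 to 5445 in WT + TAM, 44.8 to 951 in Mtm1-/y and 397 to 861 in Mtm1-/y + TAM. *Actc1*, an actin that skeletal muscle also makes, was at 3152 to 8602 CPM in WT and 38.6 to 945 in Mtm1-/y, while *Nppa* and *Myl7* were at 0.291 CPM or less in each library. The part of these lists in the results below was not tested. In whole muscle, fewer cells of a type and less RNA per cell cannot be told apart.

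RefSeq promoter sequences of GRCm38.p6 were matched for 5 of the 10 genes. Those of *Cacna1s*, *Cacnb1* and *Cacna2d1* are shown because these subunits of a single channel did not move together between the genotypes. Each runs from the distal end to the base before the annotated start, without bases of annotated exons, with E-boxes (CANNTG, the motif bound by myogenic basic helix-loop-helix factors, read on both strands) in capitals.
Cacna1s, chr1:136052561-136052749, plus strand: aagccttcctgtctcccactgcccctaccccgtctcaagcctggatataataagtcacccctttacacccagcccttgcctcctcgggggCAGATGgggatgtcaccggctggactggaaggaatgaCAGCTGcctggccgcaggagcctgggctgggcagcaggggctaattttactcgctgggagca
Cacnb1, chr11:98018373-98018622, minus strand: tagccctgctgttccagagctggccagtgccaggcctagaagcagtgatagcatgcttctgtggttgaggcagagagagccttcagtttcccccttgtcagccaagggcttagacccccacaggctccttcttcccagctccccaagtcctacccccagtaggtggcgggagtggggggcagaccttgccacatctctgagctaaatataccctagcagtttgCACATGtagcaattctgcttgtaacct
Cacna2d1, chr5:15934441-15934690, plus strand: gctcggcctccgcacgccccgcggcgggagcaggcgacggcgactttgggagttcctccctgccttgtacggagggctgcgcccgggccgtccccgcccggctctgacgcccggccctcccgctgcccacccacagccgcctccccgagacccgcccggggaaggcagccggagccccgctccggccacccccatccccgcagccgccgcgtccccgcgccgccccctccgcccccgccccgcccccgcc
The *Cacna1s* window was cut to 189 bases because exon bases of the annotation were left out, and that of *Cacnb1* belongs to 1 of its 2 starts. The *Cacna1s* window held 2 E-boxes, of which 1 had the letters CAGCTG, the *Cacnb1* window held 1 and the *Cacna2d1* window held 0. An E-box occurred in 66.2% of 32851 RefSeq promoters of 250 bases, CAGCTG in 13% and a MEF2 site in 2.92%, and none of these 3 windows held a MEF2 site. The GC content was 60.8% for *Cacna1s*, 56% for *Cacnb1* and 82.4% for *Cacna2d1*. The window of the other *Cacnb1* start, which is not shown, held 0 E-boxes and had a GC content of 72.4%. The values for *Cacnb1* therefore depend on the start. A match is a description of letters, and no binding was measured.

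In the WT muscle the 10 genes spanned a wide range of levels per exon length, with overlap among the higher ones. The pore of the voltage sensor and the release channel were nearly equal. The level of *Cacna1s* was 210 ± 19.8 CPM per kb of exon (SD, n = 4), that of *Ryr1* 207 ± 21.9 and that of *Jph2* 200 ± 14.7, which did not differ beyond their spread. *Cacng1* followed at 177 ± 14.5, with a highest library of 191 that overlapped the lowest of *Jph2* (184). *Trdn* (128 ± 9.71) and *Stac3* (115 ± 5.75) overlapped each other and lay below *Cacng1* in each library. *Jph1* (80.2 ± 3.82), *Cacnb1* (55.6 ± 3.12) and *Cacna2d1* (43.6 ± 5.16) came next, without overlap between these neighbours. *Ryr3*, a release channel paralog that is mainly found in neonatal muscle, was at 0.102 ± 0.029. By level per length *Cacna1s* ranked 124 and *Ryr1* 127 of 15533 genes, and *Ryr3* ranked 14383. Exon lengths were those of all annotated transcripts joined, so an unused exon lowers a level on this scale.

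**Figure D1:**
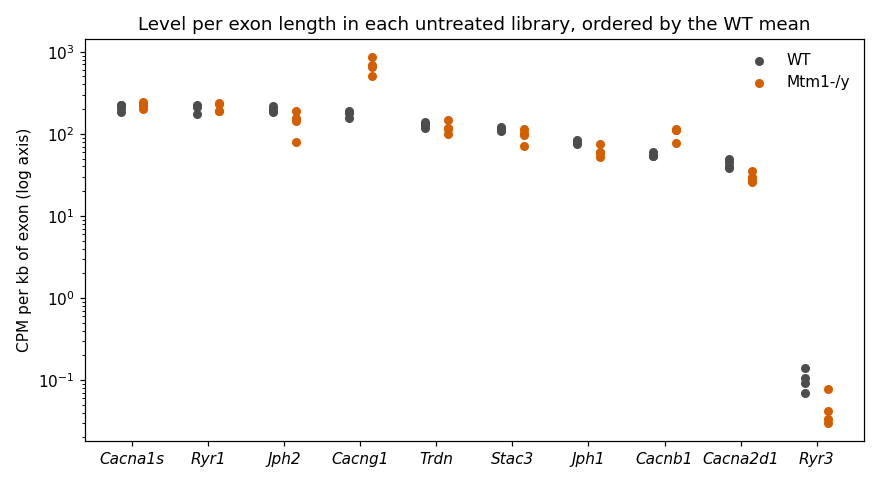
The level of each gene in CPM per kb of exon (log axis) in every WT and Mtm1-/y library, ordered by the WT mean. *Cacna1s*, *Ryr1* and *Jph2* lie together near 200 in WT, *Cacng1* overlaps their libraries in WT, at a lower mean, and lies above them in Mtm1-/y with libraries from 513 to 860, and *Ryr3* lies far below the rest in both groups.

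Between Mtm1-/y and WT without the drug, 4 of the 10 genes were called, against 30.4% of all tested genes. *Cacng1* and *Cacnb1* rose (15.5% of all genes were called higher), and *Cacna2d1* and *Jph1* fell (14.9% were called lower). The pore *Cacna1s* and the release channel *Ryr1* were not called and had intervals close to 0. The values of the same 4 genes, and of no other of the 10, did not overlap between the groups (14.8% of all genes without overlap were higher and 15.7% lower). At an unadjusted p under 0.05 there were 6 of the 10, against 41.6% of all genes. The 10 genes had a median change of -0.18 on the log2 scale, beside 0.00 for all genes.

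The pore subunit *Cacna1s* was at 1473, 1472, 1200 and 1347 CPM in WT and at 1305, 1451, 1585 and 1415 in Mtm1-/y. The groups overlapped, with a log2 fold change of 0.07 (95% interval -0.15 to 0.28, adjusted p = 0.646, SE 0.10). The gene lies on the plus strand at chr1:136052750-136119822 (GRCm38). An antisense gene, Gm37759, shares 1309 of its exon bases and had 0 to 9 counts in any library.

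The extracellular auxiliary subunit *Cacna2d1* (chr5:15934691-16374511) was at 619, 569, 481 and 497 CPM in WT and at 371, 343, 440 and 322 in Mtm1-/y. Each Mtm1-/y library was below each WT library. The log2 fold change was -0.55 (adjusted p = 0.0126, SE 0.15), a level 0.682 times that of WT.

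The cytoplasmic auxiliary subunit *Cacnb1*, which carries the channel to the membrane, lies on the minus strand at chr11:98001508-98023034. It was at 272, 250, 240 and 244 CPM in WT and at 345, 527, 501 and 498 in Mtm1-/y. Each Mtm1-/y library was above each WT library, and replicate 1 was the lowest of its group by a wide gap. The log2 fold change was 0.89 (adjusted p = 1.38e-04, SE 0.12) and was 1.02 without the 2 libraries that stood apart.

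The largest difference among the 10 genes was in *Cacng1*, the membrane-spanning auxiliary subunit that is particular to skeletal muscle (chr11:107703218-107716522, minus strand). It was at 197, 239, 229 and 222 CPM in WT and at 1074, 825, 641 and 871 in Mtm1-/y. The lowest Mtm1-/y library was well above the highest WT library. The log2 fold change was 1.94 (adjusted p = 6.29e-07, SE 0.14), or 3.85-fold, and was 1.81 without the 2 libraries that stood apart. By level per length *Cacng1* ranked 153 in WT and 46 in Mtm1-/y.

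The adaptor *Stac3* (chr10:127501686-127508823) was at 275, 304, 304 and 283 CPM in WT and at 182, 244, 288 and 256 in Mtm1-/y. The groups overlapped in a single mutant library, and the log2 fold change of -0.27 (adjusted p = 0.102, SE 0.12) was not called. It was -0.34 and called without Mtm1-/y replicate 3 (adjusted p = 0.0404), and -0.15 without the 2 libraries that stood apart.

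**Figure D2:**
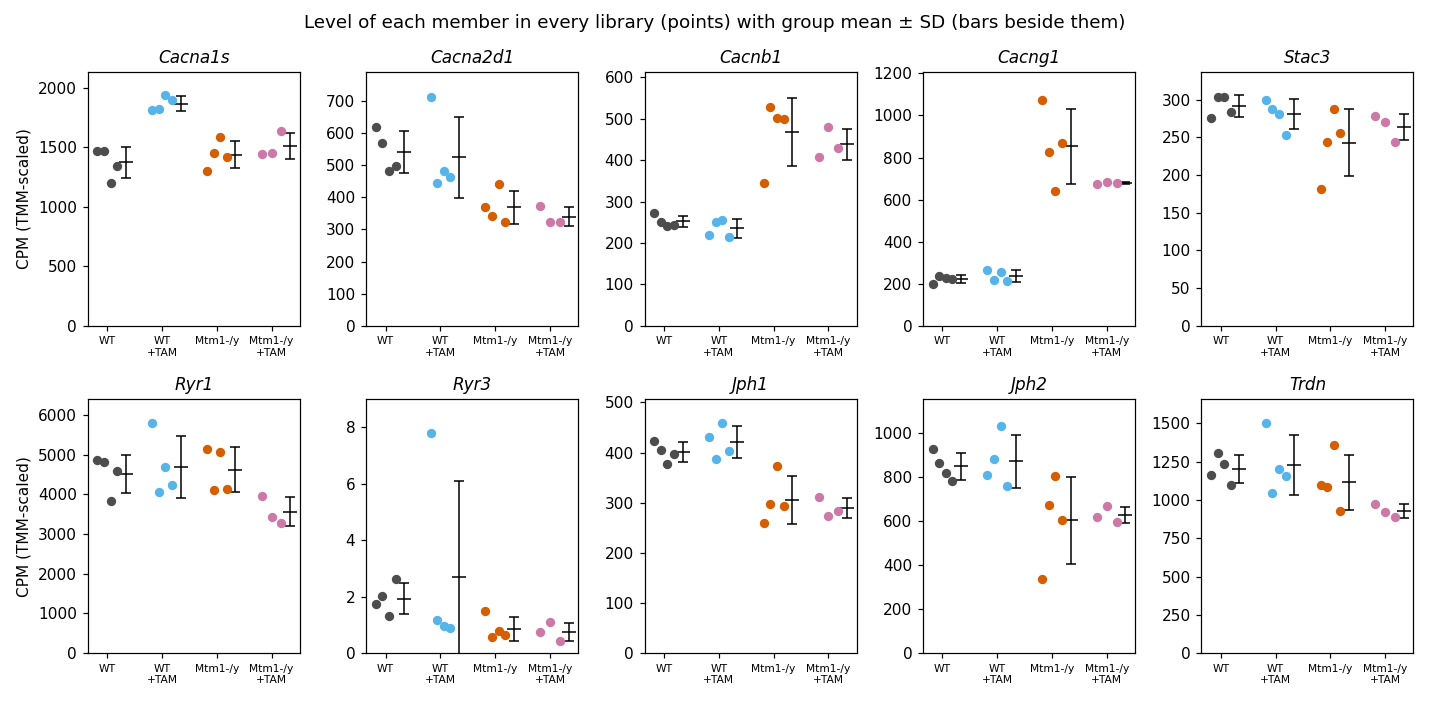
TMM-scaled CPM of the 10 genes in every library (points, replicates in order from left to right) with the mean ± SD of each group (bars, cut at 0 for *Ryr3*), by group. The Mtm1-/y libraries of *Cacng1* and *Cacnb1* lie above the WT libraries and those of *Cacna2d1* and *Jph1* below them, while WT + TAM lies above WT for *Cacna1s*.

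The release channel *Ryr1* (chr7:29003344-29125179, minus strand) was the most abundant of the 10 by CPM. It was at 4868, 4803, 3828 and 4578 CPM in WT and at 5147, 4115, 5055 and 4126 in Mtm1-/y, so the groups overlapped throughout. The log2 fold change was 0.03 (95% interval -0.26 to 0.32, adjusted p = 0.895). Its sign turned without the 2 libraries that stood apart (-0.03) and with upper-quartile scaling (-0.02).

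*Ryr3* (chr2:112631355-113217096, minus strand) was at 1.75, 2.02, 1.33 and 2.64 CPM in WT and at 1.49, 0.565, 0.794 and 0.627 in Mtm1-/y. The mutant libraries were lower apart from replicate 1, and the log2 fold change of -1.14 (adjusted p = 0.202, SE 0.65) was not called. In WT + TAM replicate 1 *Ryr3* was at 7.81 CPM, and slow fibre and fibroblast markers were also high. Without that library the change of -1.14 was called (adjusted p = 0.0171, SE 0.33), and without both libraries that stood apart it was -1.54 (adjusted p = 0.00156, SE 0.31). *Ryr3* shares 916 exon bases with *Aven* on the opposite strand, which had 369 to 904 counts, and the sources used here do not state whether counting used the strand. If it did not, reads of the pair cannot be told apart.

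The junctophilins were both at lower means in Mtm1-/y, and *Jph1* was called. *Jph1* (chr1:16964560-17097889, minus strand) was at 423, 405, 377 and 398 CPM in WT and at 260, 297, 374 and 294 in Mtm1-/y. The highest mutant library was just under the lowest WT library, and the log2 fold change was -0.39 (adjusted p = 0.0141, SE 0.11), a level 0.764 times that of WT.

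*Jph2* (chr2:163336242-163397993, minus strand) was at 929, 865, 819 and 784 CPM in WT and at 335, 673, 806 and 604 in Mtm1-/y. The mutant group overlapped WT through replicate 3 and spread widely through replicate 1. The log2 fold change was -0.49 (adjusted p = 0.0652, SE 0.19) and was not called. It was -0.29 (adjusted p = 0.0709) without the 2 libraries that stood apart, -0.64 and called without Mtm1-/y replicate 3 (adjusted p = 0.0198), and called by DESeq2 (adjusted p = 0.0476), limma-voom (adjusted p = 0.0479) and with upper-quartile scaling (adjusted p = 0.0469).

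Triadin was near its WT level. *Trdn* (chr10:33080554-33476709) was at 1162, 1307, 1234 and 1096 CPM in WT and at 1095, 1088, 1361 and 926 in Mtm1-/y, with overlapping groups and a log2 fold change of -0.10 (95% interval -0.38 to 0.18, adjusted p = 0.59).

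Mtm1-/y replicate 1 had the extreme value of its group for several of these genes. It was the highest for *Cacng1*, *Ryr1* and *Ryr3* and the lowest for *Cacna1s*, *Cacnb1*, *Stac3*, *Jph1* and *Jph2*. The 4 calls between Mtm1-/y and WT held in all 24 alternative analyses.

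The genotypes were also compared among tamoxifen-treated mice, in libraries that the comparison above did not use as groups. The same 4 genes were called in the same directions. In this comparison 20.1% of all tested genes were called, 10.6% higher and 9.46% lower. The share of all genes called in both comparisons of genotype was not counted. At an unadjusted p under 0.05 there were 9 of the 10, against 33.7% of all genes, and the median change was -0.40, beside -0.02. *Cacng1* was at 267, 216, 258 and 212 CPM in WT + TAM and at 672, 683 and 678 in Mtm1-/y + TAM. The treated mutant libraries lay within a few CPM of each other and above each treated WT library, with a log2 fold change of 1.51 (adjusted p = 1.31e-05, SE 0.15), or 2.84-fold.

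*Cacnb1* was at 218, 251, 256 and 214 CPM in WT + TAM and at 407, 479 and 429 in Mtm1-/y + TAM. It was higher in each treated mutant library, with a log2 fold change of 0.90 (adjusted p = 3.43e-04, SE 0.13). *Cacna2d1* was at 712, 444, 481 and 464 CPM in WT + TAM and at 374, 323 and 323 in Mtm1-/y + TAM. Its groups did not overlap, and the log2 fold change was -0.63 (adjusted p = 0.015, SE 0.17). It was -0.45 and still called without the 2 libraries that stood apart, and not called without Mtm1-/y + TAM replicate 2 (-0.59, adjusted p = 0.0675) or replicate 3 (-0.59, adjusted p = 0.0594).

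*Jph1* was at 432, 388, 459 and 404 CPM in WT + TAM and at 312, 273 and 284 in Mtm1-/y + TAM. The treated mutant libraries were all lower, with a log2 fold change of -0.54 (adjusted p = 0.00549, SE 0.12). Taken with the untreated mice, each of the 7 mutant libraries was below each of the 8 WT libraries for *Jph1*, narrowly (374 against 377 CPM). The same held for *Cacna2d1* (440 against 444 CPM), and for *Cacng1* and *Cacnb1* each mutant library was above each WT library. The share of all genes separated in this way was not counted.

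The values of 6 genes were lower in Mtm1-/y + TAM without overlap (14.4% of all genes were) and those of 2 were higher (17.2% were). The non-overlapping genes that were not called were *Ryr1*, *Cacna1s*, *Jph2* and *Trdn*. *Ryr1* was at 5792, 4058, 4690 and 4228 CPM in WT + TAM and at 3965, 3428 and 3280 in Mtm1-/y + TAM, with a log2 fold change of -0.40 (adjusted p = 0.0715, SE 0.15). *Cacna1s* was at 1811, 1823, 1939 and 1898 CPM in WT + TAM and at 1447, 1454 and 1638 in Mtm1-/y + TAM, with a log2 fold change of -0.30 (adjusted p = 0.0616, SE 0.11). These 2 genes sat close to the threshold, as did *Trdn* at -0.41 (adjusted p = 0.0566, SE 0.14).

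*Trdn* was at 1505, 1047, 1204 and 1158 CPM in WT + TAM and at 976, 921 and 886 in Mtm1-/y + TAM. *Jph2* was at 809, 884, 1035 and 759 CPM in WT + TAM and at 619, 670 and 597 in Mtm1-/y + TAM, with a log2 fold change of -0.47 (adjusted p = 0.126, SE 0.21). The number called was 4 in the analysis above and 8 without Mtm1-/y replicate 1, a library outside this comparison, or with DESeq2. Without that library *Ryr1* (-0.40, adjusted p = 0.05), *Cacna1s* (-0.30, adjusted p = 0.0367), *Jph2* (-0.47, adjusted p = 0.0121) and *Trdn* (-0.41, adjusted p = 0.0449) were called. Without both libraries that stood apart, *Cacna1s* (adjusted p = 0.0274) and *Jph2* (adjusted p = 0.0073) were called and *Ryr1* (-0.28, adjusted p = 0.0985) and *Trdn* (-0.29, adjusted p = 0.0887) were not. The number called was then 6.

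*Stac3* was at 300, 288, 281 and 253 CPM in WT + TAM and at 278, 270 and 244 in Mtm1-/y + TAM, with overlapping groups and a log2 fold change of -0.09 (adjusted p = 0.68, SE 0.13). *Ryr3* was at 7.81, 1.17, 0.965 and 0.877 CPM in WT + TAM and at 0.742, 1.09 and 0.428 in Mtm1-/y + TAM. Its log2 fold change of -1.83 (adjusted p = 0.0953, SE 0.74) was not called and became -0.41 without WT + TAM replicate 1, while DESeq2 on all libraries called it (-1.85, adjusted p = 0.0247).

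**Figure D3:**
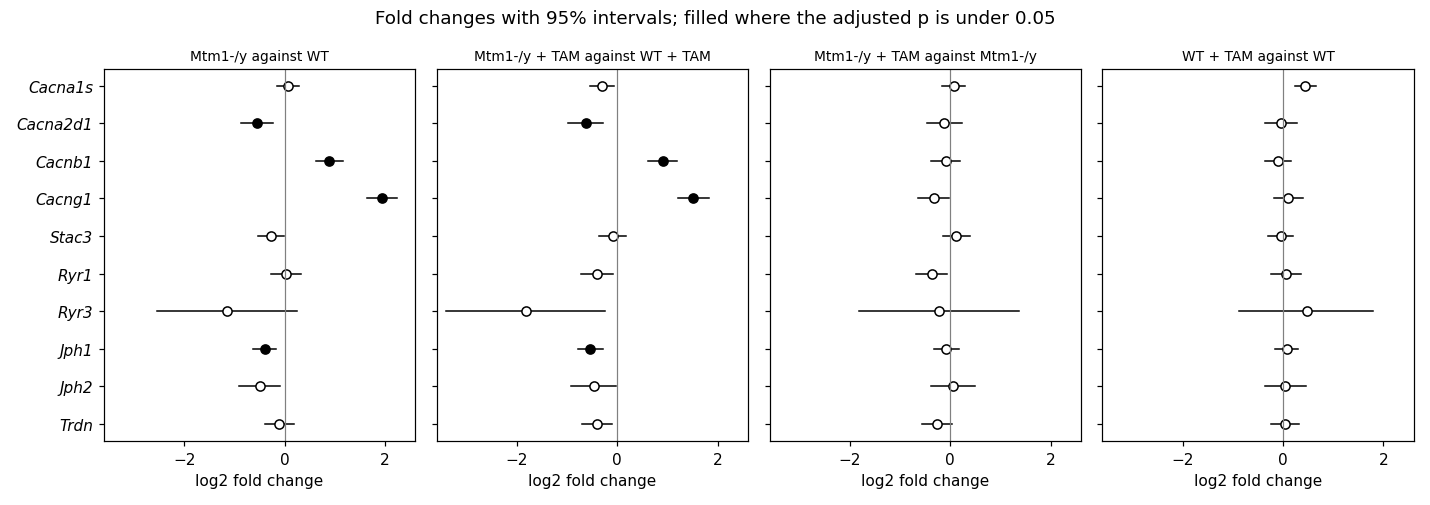
Log2 fold changes (points) of the 10 genes with 95% intervals (lines) in 4 comparisons, filled where the adjusted p was under 0.05. *Cacng1*, *Cacnb1*, *Cacna2d1* and *Jph1* are filled in both comparisons of genotype, at 1.94, 0.89, -0.55 and -0.39 without the drug, and no point is filled in the 2 comparisons of tamoxifen.

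Between treated and untreated Mtm1-/y mice no difference in these genes passed the threshold. None of the 10 was called by edgeR between Mtm1-/y + TAM and Mtm1-/y, against 0.0129% of all genes, and none was called by DESeq2 or limma-voom. At an unadjusted p under 0.05 there were 2 of the 10, *Ryr1* and *Cacng1* (5.54% of all genes). *Ryr1* had a log2 fold change of -0.37 (95% interval -0.69 to -0.06, adjusted p = 0.855, SE 0.15), and its treated libraries were all below the untreated ones (2.38% of all genes were lower without overlap, and 3.33% higher). *Cacng1* had a log2 fold change of -0.33 (95% interval -0.64 to -0.02, adjusted p = 0.855, SE 0.15), with treated values inside the range of the untreated group. The other 8 genes were between -0.27 and 0.12. The 95% interval of *Cacnb1* was -0.38 to 0.19, that of *Cacna2d1* -0.47 to 0.23, that of *Jph1* -0.33 to 0.17, that of *Jph2* -0.39 to 0.50 and that of *Ryr3* -1.82 to 1.37. Differences within these bounds remain compatible with the values of these mice. The intervals are not adjusted for the number of genes.

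In wild type mice tamoxifen went with a higher level of the pore subunit, which fell short of the threshold. *Cacna1s* had a log2 fold change of 0.44 (95% interval 0.23 to 0.66, adjusted p = 0.0843, SE 0.10) between WT + TAM and WT, and each of the 4 treated libraries was above each untreated one (4.22% of all genes were higher without overlap, and 3.86% lower). None of the 10 genes was called by edgeR, against 0.309% of all genes, while 1 of them, *Cacna1s*, had an unadjusted p under 0.05 (11.3% of all genes). *Cacna1s* was called by DESeq2 (0.45, adjusted p = 1.73e-04), without Mtm1-/y replicate 1 (0.44, adjusted p = 0.0383) and without both libraries that stood apart (0.46, adjusted p = 0.0178), and limma-voom called none. The auxiliary subunits *Cacna2d1* (-0.04), *Cacnb1* (-0.10) and *Cacng1* (0.10), the adaptor *Stac3* (-0.05), and *Ryr1* (0.05), *Jph1* (0.07), *Jph2* (0.04) and *Trdn* (0.03) had log2 fold changes near 0. *Ryr3* was at 0.47 (SE 0.62), which became -0.96 without WT + TAM replicate 1.

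Whether the tamoxifen effect differed between the genotypes was tested as an interaction. None of the 10 genes and 0% of all genes were called by edgeR, 2 of the 10 had an unadjusted p under 0.05 (10.6% of all genes), and DESeq2 and limma-voom called none of the 10. Those 2 genes were *Cacna1s*, with a difference of -0.37 (adjusted p = 0.418, SE 0.15), and *Cacng1*, with -0.44 (adjusted p = 0.464, SE 0.20).

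A ratio of a pair of genes within a library does not depend on how libraries are scaled, so the levels per exon length were also divided by that of *Cacna1s*. In WT there were 0.854 ± 0.122 units of *Cacng1* and 0.266 ± 0.0182 of *Cacnb1* for each of *Cacna1s* (SD, n = 4). In Mtm1-/y these were 3.16 ± 0.902 and 0.468 ± 0.064, in WT + TAM 0.669 ± 0.0826 and 0.182 ± 0.0163, and in Mtm1-/y + TAM (n = 3) 2.36 ± 0.162 and 0.42 ± 0.0501. For both genes each of the 7 mutant libraries had a higher ratio than each of the 8 WT libraries. These 2 ratios were added after the values of both genes had been seen and were not tested.

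For 6 other ratios, 4 comparisons each were tested by exact two-sided permutation of the libraries, 24 tests in all, and none passed after adjustment. The smallest p that 4 against 4 libraries or 4 against 3 can give is 0.0286, and it was reached 5 times (adjusted p = 0.137), which is too few for the adjusted value to pass. *Cacna2d1* to *Cacna1s* was 0.208 ± 0.011 in WT and 0.136 ± 0.0152 in Mtm1-/y, a difference of -0.62 on the log2 scale. It was also lower in WT + TAM, at 0.149 ± 0.0389 (difference from WT -0.51, exact permutation p = 0.0857). In Mtm1-/y + TAM it was 0.119 ± 0.0161 (difference from WT + TAM -0.30, exact permutation p = 0.286). *Stac3* to *Cacna1s* was 0.552 ± 0.0721 in WT, 0.432 ± 0.0502 in Mtm1-/y (difference -0.35) and 0.388 ± 0.0362 in WT + TAM (difference from WT -0.50). Between WT + TAM and WT the log2 fold change was 0.44 for *Cacna1s*, -0.04 for *Cacna2d1* and -0.05 for *Stac3*. Both lower ratios there thus went with a higher level of their shared denominator. Between Mtm1-/y and WT the log2 fold change was 0.07 for *Cacna1s*, -0.55 for *Cacna2d1* and -0.27 for *Stac3*. *Ryr3* to *Ryr1* was 4.9e-04 ± 1.22e-04 in WT and 2.12e-04 ± 8.14e-05 in Mtm1-/y, a difference of -1.18.

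The release channel stood close to parity with the voltage sensor in untreated mice. *Ryr1* to *Cacna1s* was 0.991, 0.979, 0.957 and 1.02 in WT, 1.18, 0.851, 0.956 and 0.874 in Mtm1-/y, 0.959, 0.668, 0.726 and 0.668 in WT + TAM, and 0.822, 0.707 and 0.6 in Mtm1-/y + TAM. The treated mutant libraries were below the untreated mutant libraries, a difference of -0.44 on the log2 scale that was among the 5 at the smallest p. In wild type the difference was -0.40, with an exact permutation p of 0.0571 (adjusted p = 0.229), and WT + TAM replicate 1 reached the WT range. The log2 fold changes with tamoxifen were -0.37 for *Ryr1* and 0.07 for *Cacna1s* in Mtm1-/y, and 0.05 and 0.44 in WT, none called by edgeR. The lower ratio thus went with a lower *Ryr1* in the mutant and with a higher *Cacna1s* in wild type. *Trdn* to *Ryr1* was 0.626, 0.612, 0.567 and 0.611 on average in WT, WT + TAM, Mtm1-/y and Mtm1-/y + TAM, and *Jph2* to *Jph1* was 2.49, 2.44, 2.28 and 2.56 in the same order. Neither differed beyond the spread between libraries, at exact permutation p-values of 0.314 or more for *Trdn* to *Ryr1* and 0.6 or more for *Jph2* to *Jph1*.

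**Figure D4:**
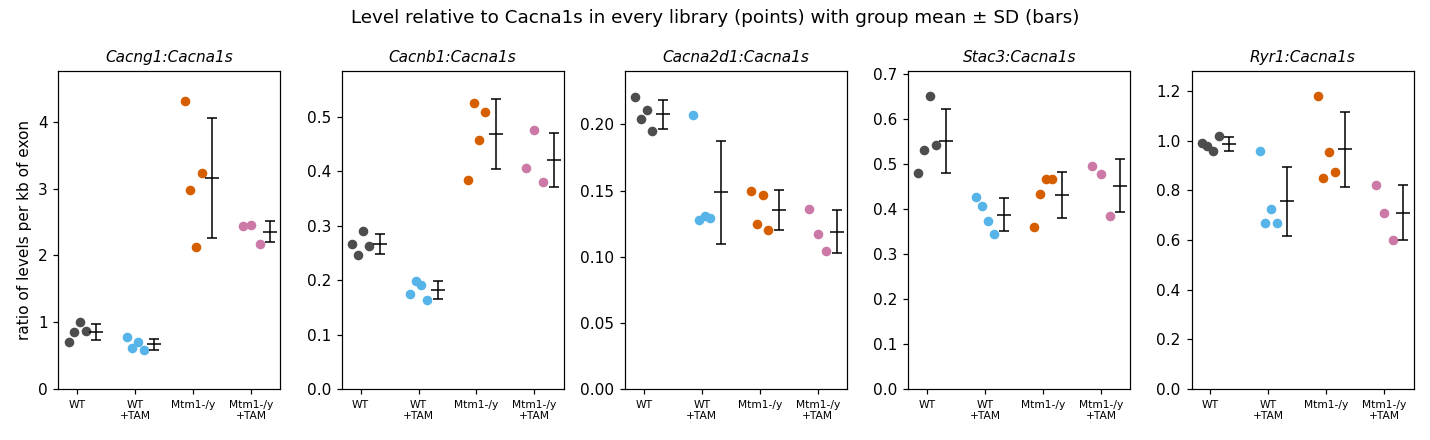
Level per kb of exon relative to *Cacna1s* in every library (points) with the mean ± SD of each group (bars). *Cacng1* and *Cacnb1* are higher relative to the pore in both mutant groups. *Cacna2d1* is lower in Mtm1-/y (0.12 to 0.15) than in WT (0.195 to 0.221), and WT + TAM lies at 0.128 to 0.207. *Ryr1* to *Cacna1s* lies at 0.957 to 1.02 in WT, 0.668 to 0.959 in WT + TAM, 0.851 to 1.18 in Mtm1-/y and 0.6 to 0.822 in Mtm1-/y + TAM.

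The wider coupling machinery was described through 55 other genes listed by role, of which 51 were tested. *Ryr2*, the cardiac release channel, was under the filter with 0 to 7 counts per library, as were *Cacng4*, *Jph3* and *Rem2*. Between Mtm1-/y and WT 22 of the 51 were called, 10 higher and 12 lower, and with tamoxifen 21, 9 higher and 12 lower. These shares of 43.1% and 41.2% stand beside 30.4% and 20.1% for all genes. The 16 genes called in both comparisons had the same direction in both. The share of all genes called in both was not counted, so this is not shown to be particular to the listed genes. In the comparisons of tamoxifen within a genotype and in the interaction edgeR and DESeq2 called 0 of the 51, with 3, 2 and 4 at an unadjusted p under 0.05 in Mtm1-/y, in WT and in the interaction, where 5.54%, 11.3% and 10.6% of all genes were. Between WT + TAM and WT, the number called moved from 0 in 2 of 24 alternatives and reached 2 at most. It was 1 without Mtm1-/y replicate 1.

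The RGK small G proteins inhibit voltage-gated calcium channels through the subunit that *Cacnb1* encodes, and 1 of the 3 tested was called. *Rrad* was at 0.763, 3.36, 1.37 and 2.76 CPM in WT and at 20.1, 83.4, 12.8 and 111 in Mtm1-/y. It was higher in each mutant library, with a log2 fold change of 4.80 (adjusted p = 4.41e-04, SE 0.71), and of 6.42 (adjusted p = 2.35e-04, SE 0.81) under tamoxifen. *Gem* (-0.60, adjusted p = 0.0906) and *Rem1* (-0.78, adjusted p = 0.0621) were not called, nor under tamoxifen (-0.25 and 0.12), and were named after their values were seen.

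Among the paralogs of the channel subunits, 1 of 11 rose and 5 fell between Mtm1-/y and WT. The gene that rose without the drug was *Cacnb4*, a paralog of *Cacnb1* (1.32, SE 0.37, adjusted p = 0.0142). Besides *Cacna2d4* and *Cacna1c*, those that fell without it were *Cacna1d*, *Cacna2d3* and *Cacng7*, with log2 fold changes of -1.18, -1.25 and -0.62. These genes had few counts. Mean log2 CPM was -0.78 for *Cacnb4*, -0.77 for *Cacna1d*, 0.12 for *Cacna2d3* and 0.91 for *Cacng7*, under the limit of 1 in the naming rule. Under tamoxifen *Cacnb4* (-0.14, adjusted p = 0.845) and *Cacna2d3* (-0.53, adjusted p = 0.453) were not called, while *Cacna1d* (-1.30, adjusted p = 0.043) and *Cacng7* (-0.90, adjusted p = 0.0168) were. *Cacnb4* and the last 3 were named after their values were seen. *Cacna2d4*, a paralog of the subunit encoded by *Cacna2d1*, was at 37.5, 38.6, 25.4 and 30.5 CPM in WT and at 1.15, 4.84, 4.7 and 4.35 in Mtm1-/y. The groups were far apart, with a log2 fold change of -3.15 (adjusted p = 5.19e-04, SE 0.49). Under tamoxifen it was -1.71 (adjusted p = 0.0332, SE 0.51), a call that was lost in 10 of 24 alternatives. *Cacna2d4* was at 5.27, 20.4, 31.2 and 24.3 CPM in WT + TAM and at 6.52, 5.51 and 6.7 in Mtm1-/y + TAM. Without WT + TAM replicate 1, the lowest of these libraries, the log2 fold change was -2.03. *Cacna1c*, the pore of the cardiac channel, had 4.36 ± 0.671 CPM in Mtm1-/y and 6.61 ± 0.963 in WT and fell by 0.60 on the log2 scale (adjusted p = 0.0114, SE 0.16), and under tamoxifen by 0.91 (adjusted p = 0.00301, SE 0.18). Of the adaptor and junctophilin paralogs 0 of 3 were called, and *Stac* had a log2 fold change of -0.27 (adjusted p = 0.593, SE 0.34). These paralogs were also near the floor, with mean log2 CPM of -2.11 to -0.32.

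**Figure D5:**
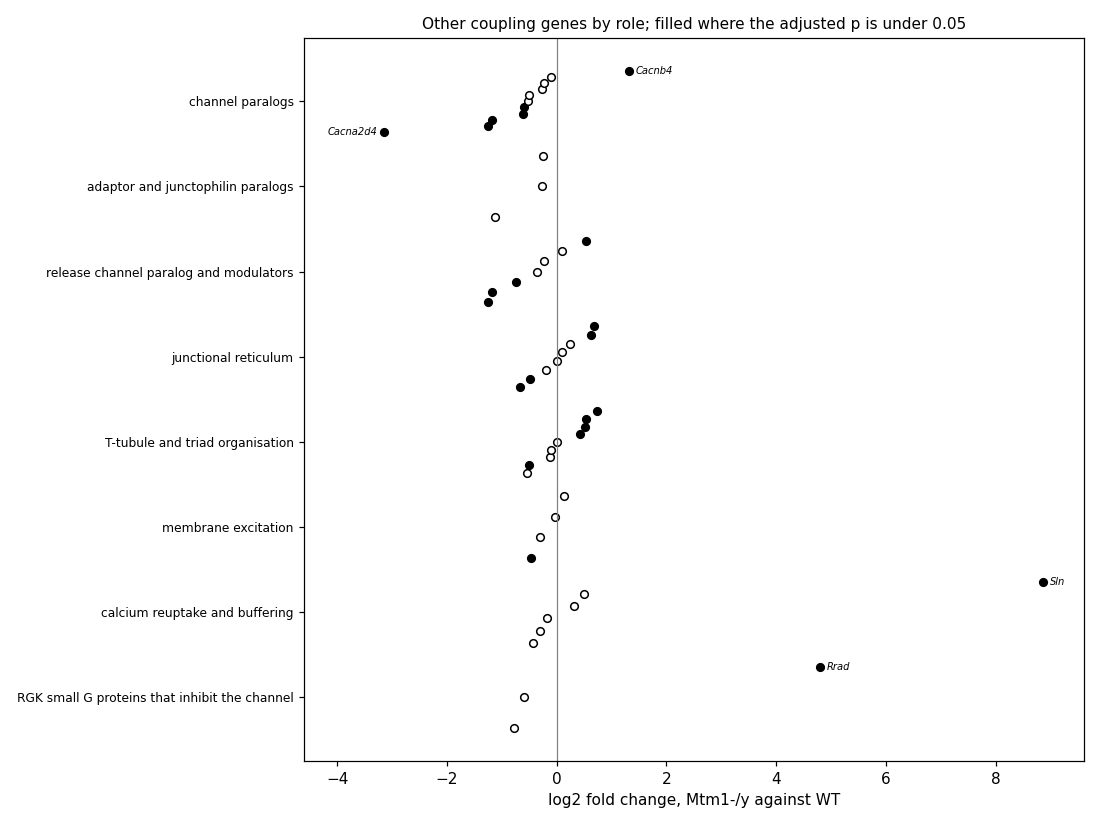
Log2 fold changes between Mtm1-/y and WT of the 51 other coupling genes that were tested, each point a gene placed in the row of its role, filled where the adjusted p was under 0.05. *Sln* and *Rrad* lie far to the right at 8.86 and 4.80 and *Cacna2d4* farthest to the left at -3.15, and most other points lie within 1 of 0.

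Of the 7 tested modulators of the release channel, 3 fell and 1 rose without the drug. *Calm3*, a gene of the calcium sensor calmodulin, which binds both the release channel and the voltage sensor, was at 424, 293, 273 and 262 CPM in WT and at 95.3, 149, 173 and 138 in Mtm1-/y. It was lower in each mutant library, with a log2 fold change of -1.17 (adjusted p = 2.12e-04, SE 0.17), and it was called lower under tamoxifen as well (adjusted p = 0.00221, SE 0.19). *Calm2* also fell without the drug, by 0.75 (adjusted p = 0.00618, SE 0.18), and was not called under tamoxifen (-0.10, adjusted p = 0.769). The gene that rose was *S100a1*, a calcium-binding modulator of the release channel, by 0.53 without the drug (adjusted p = 0.00251, SE 0.11) and by 0.79 under tamoxifen (adjusted p = 4.03e-04, SE 0.12).

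In the junctional reticulum 2 of 8 rose and 2 fell without the drug, the latter *Casq1* and *Srl* (-0.49, SE 0.14, adjusted p = 0.0196), which was named after its values were seen. Neither was called under tamoxifen, at -0.31 (adjusted p = 0.437) for *Casq1* and -0.27 (adjusted p = 0.246) for *Srl*. *Jsrp1*, which binds the dihydropyridine receptor and calsequestrin, was at 238, 227, 251 and 210 CPM in WT and at 302, 449, 318 and 367 in Mtm1-/y. It was higher in each mutant library, by 0.63 (adjusted p = 0.00131, SE 0.12), and by 0.51 under tamoxifen (adjusted p = 0.012, SE 0.13). The call under tamoxifen was lost without Mtm1-/y + TAM replicate 2 (0.45, adjusted p = 0.0636). *Tmem38b*, a cation channel of the reticulum, rose by 0.68 (adjusted p = 0.00137, SE 0.13), and by 0.43 under tamoxifen (adjusted p = 0.0396).

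*Casq1*, the calsequestrin of fast fibres, was at 6738, 5520, 5166 and 4964 CPM in WT and at 1656, 3784, 5044 and 3693 in Mtm1-/y. Mtm1-/y replicate 1 was by far the lowest, and the groups overlapped through replicate 3. The log2 fold change of -0.66 (adjusted p = 0.0461, SE 0.24) lost its call in 15 of 24 alternatives and was -0.42 (adjusted p = 0.0269) without the 2 libraries that stood apart. *Asph*, whose products include junctin, was at 0.00 (adjusted p = 0.992, SE 0.12).

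Among 9 genes of T-tubule and triad organisation 4 rose and 1 fell. *Bin1*, which encodes the membrane-bending protein amphiphysin of the T-tubule, was at 608, 566, 545 and 519 CPM in WT and at 573, 948, 801 and 866 in Mtm1-/y. All mutant libraries but replicate 1 were above WT, and the log2 fold change was 0.51 (adjusted p = 0.01, SE 0.13), 0.64 without the 2 libraries that stood apart and 0.68 under tamoxifen (adjusted p = 0.00433, SE 0.14). *Dysf*, a membrane repair protein, rose by 0.73 (adjusted p = 0.00241, SE 0.15), and by 0.65 under tamoxifen (adjusted p = 0.011). *Dnm2*, the membrane-severing GTPase dynamin, rose by 0.42 (adjusted p = 9.8e-04, SE 0.08) and *Ank1*, an ankyrin that links the reticulum to the sarcomere, fell by 0.51 (adjusted p = 0.0296, SE 0.17), both named after their values were seen. Under tamoxifen *Dnm2* was called again (0.30, adjusted p = 0.0182) and *Ank1* was not (-0.20, adjusted p = 0.461). *Cav3*, the muscle caveolin, rose by 0.54 without the drug (adjusted p = 0.0361, SE 0.18) and under tamoxifen by 0.72 (adjusted p = 0.0181, SE 0.20), a call that was lost without Mtm1-/y + TAM replicate 2 (0.56, adjusted p = 0.106).

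Of 4 genes of membrane excitation, *Scn4a*, the sodium channel of the muscle membrane, was called and fell by 0.47 (adjusted p = 0.00896, SE 0.12) and under tamoxifen by 0.76 (adjusted p = 0.00132), and it was named after its values were seen.

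For the return of calcium to the reticulum, 1 of 6 genes was called without the drug. *Sln*, a small membrane protein that inhibits the calcium pump, was at 1.43, 1.58, 1.46 and 1.38 CPM in WT and at 1750, 361, 303 and 304 in Mtm1-/y. Replicate 1 was the highest of the mutant libraries, and the log2 fold change was 8.86 (adjusted p = 4.12e-06, SE 0.69), 7.79 without the 2 libraries that stood apart, and 7.28 under tamoxifen (adjusted p = 1.9e-05, SE 0.65). DESeq2 gave it no adjusted p. *Atp2a1*, the pump of fast fibres, was at 47140, 42586, 38177 and 39632 CPM in WT and at 35391, 32993, 45903 and 34157 in Mtm1-/y. The groups overlapped, with a log2 fold change of -0.17 (adjusted p = 0.317, SE 0.13). Under tamoxifen it fell by 0.42 (adjusted p = 0.0451, SE 0.14), a call that was lost in 13 of 24 alternatives.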

How the data were processed

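Messenger RNA of the tibialis anterior was sequenced from TruSeq Stranded mRNA libraries of 15 mice, 1 library each. The authors deposited raw read counts per Ensembl gene, without normalization. Tools listed in the submitters' processing notes are STAR 2.5.3a, HTSeq 0.6.1p1, cutadapt 1.10 and Bowtie2 2.2.8, with GRCm38 and mm10 as builds. The sources used here state no strand setting. Exons of Cacna1s, Cacnb1, Jph1, Ryr1 and Ryr3 overlap genes on the other strand, and reads counted without strand could fall to either.

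All 30672 gene identifiers matched GENCODE M21, which gave symbols, coordinates and exon lengths. Counts were analysed in R 4.3.3 with edgeR 4.0.16 (filterByExpr with the 4 groups and a minimum count of 10, TMM factors, estimateDisp, robust glmQLFit, leaving 11 degrees of freedom). CPM were counts over the library size of the tested genes and the TMM factor. Log2 ratios had a prior count of 2. P-values set the difference between groups against the spread between these mice. A simulation with known changes was used to test the pipeline.

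The 10 genes, the lists, the tests and the alternatives were chosen with earlier results of these data known. Of the 55 other genes, those named were the 4 highest and 4 lowest called log2 fold changes of each comparison whose mean log2 CPM was 1 or more, and *Bin1*, *Casq1*, *Atp2a1*, *Stac*, *Ryr2*, *Cacna1c*, *Asph* and *Jsrp1* in any case. A gene that this rule names is not reported here. Alternatives were upper-quartile factors, relative log expression (RLE) factors, no filter, a minimum count of 50, DESeq2 1.42.0, limma-voom (limma 3.58.1), a replicate block, only the 2 groups compared, and leaving out each library or both that stood apart.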

Additional observations from a re-analysis of the deposited data

Results flagged for a closer look

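In groups of 4 libraries, a value was singled out when its gap to the nearest other took up more of the group's whole range than Dixon's 95% critical value allows. Of 48 groups of values 6 met it, where chance singles out about 1 in 20. The groups share libraries, so they are not independent.

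WT + TAM replicate 1 was high for *Ryr3*, at 7.81 CPM, and for *Cacna2d1*, at 712 CPM. It was also high for the ratio of *Ryr3* to *Ryr1* per exon length, at 0.00155, and for that of *Cacna2d1* to *Cacna1s*, at 0.207. In the same library slow fibre markers summed to 1412 CPM, against 113 to 210 in the other 3 of its group. Mtm1-/y replicate 1 was low for *Cacnb1*, at 345 CPM, and high for *Ryr3* to *Ryr1*, at 3.33e-04. What sets these libraries apart was not tested.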

How the results depend on the processing

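The rise of *Cacng1* and *Cacnb1* and the fall of *Cacna2d1* and *Jph1* between Mtm1-/y and WT kept their direction and call in all 24 alternatives, and 4 to 6 of the 10 genes were called there. Between Mtm1-/y + TAM and WT + TAM, *Cacng1* (1.46 to 1.57), *Cacnb1* (0.83 to 0.95) and *Jph1* (-0.60 to -0.50) were called in all 24, and *Cacna2d1* (-0.70 to -0.45) in all but the 2 named in the report. In that comparison 8 genes were called by DESeq2 and 3 to 8 with a library left out. Between WT + TAM and WT, 1 was called by DESeq2, 1 without both libraries that stood apart and 0 to 1 with a library left out. Over all genes, the 48 calls between WT + TAM and WT became 298 by DESeq2, 347 without both libraries and 11 to 143 with a library left out. The 3121 between Mtm1-/y + TAM and WT + TAM became 1656 without Mtm1-/y + TAM replicate 2, the 2 between Mtm1-/y + TAM and Mtm1-/y became 4 by DESeq2 and 7 without both libraries, and the 0 of the interaction became 74, 14 and, with no filter, 2. The causes were not tested. Depth limits *Ryr3*, with 14 to 191 counts a library.

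Changes that turned sign were small or rested on *Ryr3*, and none of them was called under either setting. Without both libraries that stood apart these were *Ryr1* (-0.03) and *Asph* (0.02) between Mtm1-/y and WT, *Stac* (-0.01) between Mtm1-/y + TAM and WT + TAM, *Ryr3* (0.18) and *Jph2* (-0.14) between Mtm1-/y + TAM and Mtm1-/y, *Ryr1* (-0.06), *Ryr3* (-0.96) and *Trdn* (-0.08) between WT + TAM and WT, and *Ryr3* (1.14), *Cacna2d1* (0.11), *Cacnb1* (-0.15) and *Jph2* (-0.22) in the interaction. *Ryr1* between Mtm1-/y and WT was -0.02 with upper-quartile factors. *Cacnb1* in the interaction was -0.01 with RLE factors and DESeq2 and 0.00 with no filter. limma-voom gave *Ryr3* -0.26 between WT + TAM and WT and 0.02 in the interaction. *Asph* between Mtm1-/y and WT was 0.01 with RLE factors, no filter or DESeq2 and 0.00 with only the 2 groups compared, and *Stac* between Mtm1-/y + TAM and WT + TAM was 0.00 with upper-quartile factors or DESeq2 and -0.04 with limma-voom.

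With a library left out, values whose sign turned ranged as follows. Between Mtm1-/y and WT they were -0.04 to 0.08 for *Ryr1*, -0.55 to 0.05 for *Stac* and -0.07 to 0.04 for *Asph*, and between Mtm1-/y + TAM and WT + TAM -0.17 to 0.19 for *Stac* and -0.15 to 0.03 for *Asph*. Between Mtm1-/y + TAM and Mtm1-/y they were -0.64 to 0.18 for *Ryr3*, -0.15 to 0.02 for *Jph1* and -0.14 to 0.21 for *Jph2*. Between WT + TAM and WT they were -0.06 to 0.12 for *Ryr1*, -0.96 to 0.77 for *Ryr3*, -0.23 to 0.03 for *Cacna2d1*, -0.06 to 0.10 for *Jph2* and -0.08 to 0.10 for *Trdn*. In the interaction they were -1.11 to 0.73 for *Ryr3*, -0.15 to 0.11 for *Cacna2d1*, -0.11 to 0.07 for *Cacnb1* and -0.18 to 0.18 for *Jph2*. Log2 ratios of *Ryr3* to *Ryr1* ranged from -0.12 to 0.46 between the mutant groups and from -0.81 to 0.07 between the WT groups. Those of *Jph2* to *Jph1* ranged from -0.24 to 0.03 between Mtm1-/y and WT, -0.01 to 0.14 between the treated groups and -0.09 to 0.01 between the WT groups. *Ryr1* to *Cacna1s* ranged from -0.14 to 0.01 between Mtm1-/y and WT and -0.20 to 0.04 between the treated groups, *Stac3* to *Cacna1s* from -0.02 to 0.18 between the mutant groups, and *Trdn* to *Ryr1* from -0.03 to 0.04 between the treated groups and -0.07 to 0.07 between the WT groups. The test of the ratios cannot pass after adjustment unless many of the 24 reach the smallest p, so its result under a prior count of 0.5 says nothing of stability.

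Replicate numbers did not pair the libraries, since the deviations of same-numbered libraries correlated at -0.11 to 0.31 over 21 pairs (median 0.00), and 5 of 15 libraries correlated best with one of their own number. With a replicate block, 4 of the 10 genes were called between Mtm1-/y and WT, 5 between Mtm1-/y + TAM and WT + TAM, with *Trdn* added (-0.45, adjusted p = 0.0448), and 0 in the other comparisons. Called genes that were lost with the block were *Casq1* between Mtm1-/y and WT (-0.68, adjusted p = 0.0705), and *Atp2a1* (-0.44, adjusted p = 0.0552) and *Cacna2d4* (-1.51, adjusted p = 0.0754) between Mtm1-/y + TAM and WT + TAM.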
